A study of Mus musculus with 48 samples.

Results

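The mitochondrial ribosomal protein genes of the mouse kidney were followed at the levels of mRNA, ribosome footprints and translation efficiency over the day. A gene belonged to the set when its symbol began with Mrpl or Mrps followed by a digit, when it was listed in both assays, and when its median RPKM (reads per kilobase of coding sequence and library depth) was at least 0.5 in both. The rule found 74 genes, 47 named Mrpl and 27 named Mrps, among the 12423 genes listed in both assays and the 11863 of them that passed the RPKM minimum and were tested. Every member listed in both assays passed that minimum, and the annotation held 78 genes with such symbols, pseudogenes left out. The other 4, Mrps10, Mrps23, Mrpl33 and Mrpl53, were not analysed here.

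Mitochondria carry their own ribosomes, which translate the few proteins encoded by mitochondrial DNA, all of them subunits of the respiratory chain or ATP synthase. The rRNAs of these ribosomes come from the mitochondrial genome, whereas their proteins are encoded in the nucleus, translated by cytosolic ribosomes and imported. The kidney, whose tubules reabsorb solutes at high energetic cost, is among the organs richest in mitochondria. Names with Mrpl stand for the large subunit and names with Mrps for the small subunit, although Mrps18a and Mrps30 sit in the large subunit of the assembled particle and Mrps36 is also described as a component of the α-ketoglutarate dehydrogenase complex. The footprints measured here are those of cytosolic ribosomes on the nuclear-encoded mRNAs, not those of mitochondrial ribosomes.

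Kidneys came from male C57BL/6JRj mice aged 11 to 12 weeks that lived under 12 h of light and 12 h of dark, with no genetic change and no other treatment. Samples were taken every 2 h at 12 timepoints, where ZT00 is lights on and ZT12 is lights off. At each timepoint there were 2 replicate pools, each made from the lysates of 2 mice. Each of the 24 pools gave 1 library of ribosome-protected fragments (RPF-seq) and 1 library of total RNA (RNA-seq), 48 libraries in all. Translation efficiency (TE) is the ratio of RPF to RNA RPKM within a pool. Because whole organs were used, fewer cells of a type and less RNA per cell cannot be told apart in any of these values. A difference between the replicates is one between pools, so variation between the mice of a pool is averaged out.

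The time labels were checked with 3 clock genes. Arntl, Per2 and Dbp had fitted RNA peaks at ZT22.5, ZT14.7 and ZT10.5 with folds of 24.98, 7.73 and 42.1 between peak and trough, and their footprints peaked at ZT22.7, ZT14.8 and ZT10.5. All 9 proximal tubule markers and all 8 markers of the distal tubule and collecting duct were listed, with summed RNA levels of 5973 to 7064 RPKM and 3222 to 4409 RPKM per library. None of the 4 adrenal markers was listed. The summed RNA of the 4 listed adipocyte markers ran from 8.20 to 47.9 RPKM in the light phase and from 2.36 to 20.1 RPKM in the dark phase. That of the 4 liver markers ran from 121 to 461 RPKM, with a mean of 288 RPKM for Ttr alone. Their summed footprints ran from 197 to 721 RPKM. By the rhythm test below, TE was called in 2 of these 4, Alb and Apoa1, with folds of 3.31 and 3.75. The summed RNA of the 6 listed blood and immune markers ran from 225 to 488 RPKM. The part of such tissue and cells in the results below was not tested. Relative depth, read from the step that 1 read makes in the RPKM values, ranged from 0.597 to 2.03 in RNA-seq and from 0.701 to 1.58 in RPF-seq. It was higher in the light phase than in the dark phase in both assays, with medians of 1.14 and 0.812 in RNA-seq and of 1.18 and 0.909 in RPF-seq. The part of depth in the rhythms below was not tested. Among the 49 members with a single annotated coding length, the lowest library value rested on about 139 reads for RNA (Mrpl14) and 125 for footprints (Mrpl30).

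Members were moderately abundant, and their levels spread over a range of about 16.5-fold in RNA and 15.8-fold in footprints. The median member had 57.1 RPKM in RNA, against 16.5 RPKM for the median gene tested, and 66.5 RPKM in footprints, against 13.7 RPKM. Mrps21, a small subunit protein with a bacterial counterpart, had the highest mRNA level by far. Its RNA ran from 230.2 to 363.3 RPKM over the 24 libraries, with a median of 302.2 and a mean of 298 ± 33.0 RPKM (SD, n = 24). After it came Mrpl12 (154 ± 23.5), the flexible stalk protein that engages the GTPase translation factors, Mrpl20 (151 ± 15.7) and Mrpl51 (146 ± 12.8). Only the step between Mrps21 and Mrpl12 in this order exceeded 1 SD of both neighbours, and the other 72 of 73 steps between neighbours did not. At the low end stood Mrpl19 (18.1 ± 2.06 RPKM), Mrps27 (21.7 ± 2.03), Mrps2 (21.9 ± 2.06) and Mrpl47 (23.0 ± 2.86), whose ranges overlapped. The highest library of Mrpl19 held 24.2 RPKM, so that no library of Mrps21 came near it.

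In footprints Mrps21 again ranked first with 384 ± 48.0 RPKM, but the second place went to Mrps6 with 196 ± 41.1 RPKM, although its RNA level was only 77.8 ± 13.2 RPKM. Mrps6 encodes a small subunit protein related to bacterial S6. The lowest footprint levels were those of Mrpl19 (24.2 ± 1.95 RPKM), Mrps2 (27.5 ± 2.96) and Mrpl30 (28.4 ± 4.70). For Mrpl30 this stood against an RNA level of 81.7 ± 6.93 RPKM, above that of the median member. Across members, Spearman's rho between mean RNA and mean footprint level was 0.73, beside 0.92 across all 11776 genes with an annotated coding length. Both are descriptions across genes that share libraries. The SD of mean log2 RNA levels was 0.72 across members and 2.13 across all genes tested. The part of this narrower spread in the lower rho was not tested.

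**Figure D1:**
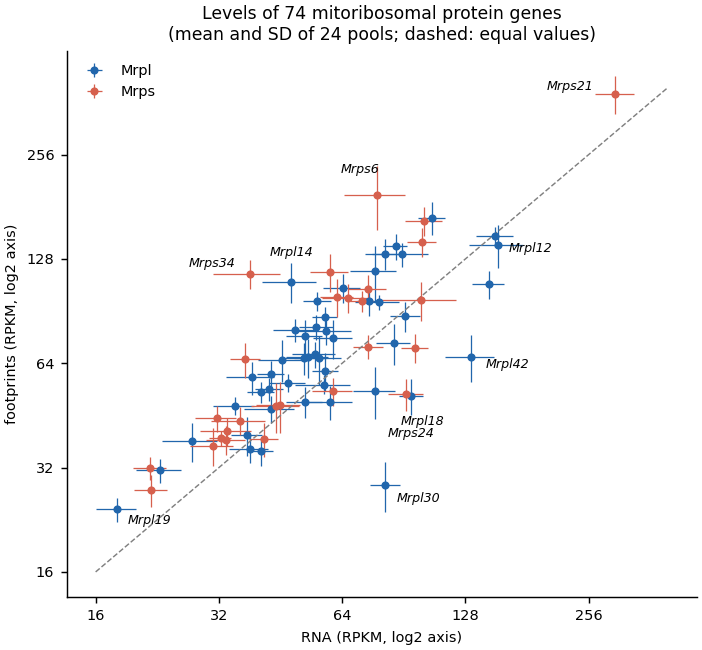
Mean RNA level (x axis, RPKM, log2 axis) and mean footprint level (y axis, RPKM, log2 axis) of the 74 members, with the SD over 24 pools as bars and blue and red for Mrpl and Mrps symbols. Mrps21 lies apart at the top right, Mrps6, Mrps34 and Mrpl14 lie above the line of equal values, and Mrpl30 and Mrpl42 lie below it.

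TE differed widely between members. It was expressed relative to the median gene of the same pool, and a member was called when limma's test over all genes gave an FDR under 0.05 and the difference was at least 1.5-fold. Of the 74 members, 23 were above the median gene by this rule, or 31.1%, while 20.6% of all genes tested were called in this direction. Only 4 members (5.41%) were below it, while 26.0% of all genes were. The median member had a log2 TE of 0.42 relative to the median gene, or 1.33-fold, and 61 of the 74 members were above 0. In 40 members every pool was above the median gene, and in 6 members every pool was below it.

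The highest TE belonged to Mrps34 (chr17:24895116-24897502, plus strand, in GENCODE vM21 on GRCm38), a protein of the small subunit with no bacterial counterpart. Its footprint-to-RNA ratio ran from 1.79 to 4.39 over the pools with a median of 3.11, and lay 3.25-fold above the median gene (log2 TE 1.70 ± 0.06 SE, limma adjusted p = 6.57e-21). Mrps6 followed with ratios of 1.68 to 3.52 (log2 TE 1.40 ± 0.06), then Mrpl14 with 1.28 ± 0.06, Mrps28 with 1.05 ± 0.04 and Mrps18b with 0.89 ± 0.03. In all 5 of these members each of the 24 pools was above the median gene of its pool. Mrps34 had a below-median RNA level for the set (38.0 ± 7.11 RPKM) yet a footprint level of 116 ± 11.0 RPKM.

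The lowest TE belonged to Mrpl30 (chr1:37890477-37898535, plus strand), a large subunit protein with a bacterial counterpart, whose ratios ran from 0.206 to 0.455 with a median of 0.344. Its log2 TE was -1.46 ± 0.06 (SE, limma adjusted p = 2.29e-19), which is 0.364 of the median gene. The other members called low were Mrpl42 with -0.91 ± 0.05, Mrpl18 with -0.80 ± 0.03 and Mrps24 with -0.73 ± 0.04, and none of the 24 pools of these 4 members reached the median gene. Mrpl57, the fifth lowest with -0.46 ± 0.06, missed the 1.5-fold limit and rose above the median gene in 1 pool. In the order of mean TE, only the step between Mrpl42 and Mrpl30 exceeded 1 SD of both neighbours. The highest and lowest ranges did not touch: the lowest pool of Mrps34 had a TE of 1.79, and the highest pool of Mrpl30 had 0.455.

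The 3 paralogs of bacterial S18 all had TE values above the median gene. Mrps18a, Mrps18b and Mrps18c had RNA levels of 74.0 ± 7.98, 37.2 ± 3.06 and 62.3 ± 5.90 RPKM and log2 TE values of 0.58, 0.89 and 0.75. The value of Mrps18a lay just under the 1.5-fold limit.

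**Figure D2:**
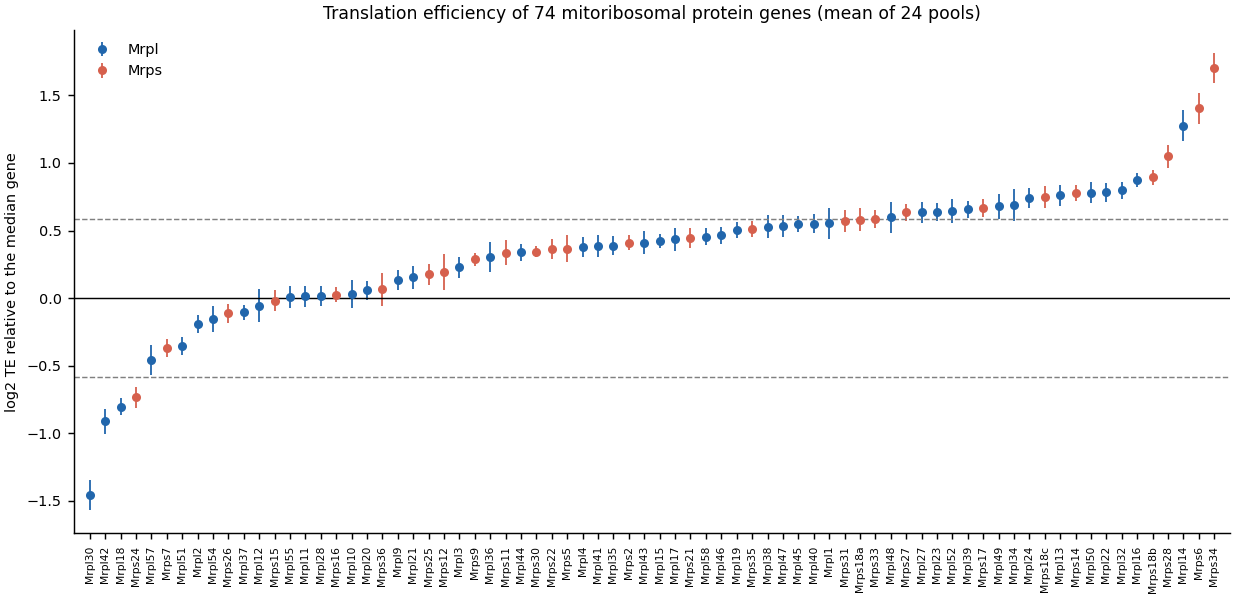
Log2 TE relative to the median gene (y axis) of each member (x axis, ordered by value), as the mean over 24 pools with its 95% interval from limma's standard error, blue for Mrpl and red for Mrps symbols and dashed lines at 1.5-fold. Most members lie between 0 and 0.9, with Mrps34, Mrps6 and Mrpl14 standing out at the top and Mrpl30 at the bottom.

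Short coding sequences had a high TE across the kidney as a whole, and most members are short. The median annotated coding length was 597 bases for members and 1392 bases for all genes tested. Among all genes with coding sequences under 600 bases the median log2 TE was 0.47, and it was 0.41 for the 37 members in that class. In the class of 600 to 1200 bases the values were 0.27 for all 3450 genes and 0.45 for the 33 members. Under 600 bases 42.8% of all genes and 15 of the 37 members were called high. From 600 to 1200 bases 30.3% of all genes and 7 of the 33 members were called high, so there the members had the higher median but not the higher share of calls. Within the set TE did not follow length, with a Spearman's rho of -0.02, beside -0.41 over all genes. The 4 members called low were all among the 37 under 600 bases, a class in which 12.7% of all genes were called low. From 1200 bases up 33.6% of all genes were called low.

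The members' levels were about as uneven in footprints as in RNA. In the RNA libraries the SD of log2 levels across the 74 members was between 0.705 and 0.800 with a median of 0.738, and in the RPF libraries it was between 0.687 and 0.846 with a median of 0.766. The RPF value was below the RNA value of the same pool in 4 of the 24 pools. Across all genes tested the medians were 2.13 and 2.39, so the members were much closer to each other than genes at large in both assays. The medians of the 47 Mrpl and 27 Mrps genes were 56.3 and 59.8 RPKM in RNA, 66.7 and 65.6 RPKM in footprints, and 0.42 and 0.41 in log2 TE.

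Daily rhythms were tested with limma by fitting a cosine curve with a period of 24 h to the 24 libraries of an assay, with Benjamini-Hochberg adjustment over all 11863 genes. In RNA, 32 of the 74 members (43.2%) had a 24-h component at an FDR under 0.05, while 48.6% of all genes tested did. The share of members was thus near, and slightly under, the share of genes at large. The amplitudes were small: the median fold between the fitted peak and trough was 1.15 for members and 1.20 for all genes. When a fold of at least 1.5 was also required, only Mrps36 (chr13:100735955-100744659, minus strand) remained, 1 of 74 members, beside 10.2% of all genes. Mrps36 RNA was highest at ZT20, with 130 and 138 RPKM in the 2 pools, and lowest at ZT04, with 72.0 and 79.0 RPKM. The fitted fold was 1.64 with a peak at ZT17.1 ± 0.55 h (SE, limma adjusted p = 2.36e-05). Each replicate series alone placed the peak between ZT16.1 and ZT17.7. The fold was 1.90 in the first replicate series and 1.45 in the second.

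The next largest RNA rhythms ran in opposite directions of the day. Mrps34 RNA was high at ZT08 (54.1 and 40.3 RPKM) and low at ZT20 (27.3 and 28.4 RPKM), with a fold of 1.46 (limma adjusted p = 0.000453) and a peak at ZT8.16. Mrpl10, which anchors the Mrpl12 stalk to the large subunit, was high at ZT14 (69.2 and 63.3 RPKM) and low at ZT04 (46.5 and 38.7 RPKM), with a fold of 1.39 (limma adjusted p = 0.00089). The transcript of Mrps22, a small subunit protein without a bacterial counterpart, reached 42.5 and 41.1 RPKM at ZT20 and 26.6 and 27.6 RPKM at ZT08, with a fold of 1.36 (limma adjusted p = 0.000237). That of Mrps6 had a fold of 1.33 and a fitted peak at ZT7.72 (limma adjusted p = 0.021), although its highest timepoint was ZT16 and its lowest ZT20. In each of these members the pools of the high and low timepoints did not overlap, which was also the case for 71 of the 74 members when timepoints were picked by their means and so carries no weight alone.

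Of the 32 RNA peaks, 10 fell in the light phase and 22 in the dark phase, 13 of these between ZT18 and ZT24. Among all genes with a 24-h RNA component 53.3% peaked in the light phase. For 31 of the 32 members the 2 replicate series gave peaks at most 3 h apart. Members were called on both series together, so this closeness carries no weight alone, and the share over all genes was not counted. Genes numbered like their bacterial counterparts (up to L36 and S21) were called in RNA in 22 of 42 cases (52.4%). The higher numbers, mostly proteins that only mitochondria have, were called in 10 of 32 (31.25%). Of all genes tested 48.6% were called, so the share of the bacterial numbers was near that of genes at large. This grouping was made after the values were known and assigns a few proteins, such as Mrps24, to the wrong class.

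In footprints 17 of 74 members (23.0%) had a 24-h component, while 30.9% of all genes did, and 0 of 74 members reached a fold of 1.5 in limma's test, while 7.58% of all genes did. At an unadjusted p under 0.05, 34 of the 74 members passed without the fold, beside 42.6% of all genes. Again 0 passed with it, since the largest fold of any member was 1.43. That largest rhythm was that of Mrps6. Its footprints were highest at ZT16, with 291 and 307 RPKM, and lowest at ZT00, with 149 and 171 RPKM. Timepoints picked in this way did not overlap in 72 of the 74 members, so this separation carries no weight alone. The fitted peak was at ZT13.6 ± 0.84 h (SE, limma adjusted p = 0.00412). The profile was not a smooth wave, since the median over all pools was 188 RPKM and the rise was seen at ZT14 and ZT16 in the plot of its time course.

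Mrpl12 footprints followed with a fold of 1.36 and a peak at ZT3.90 (limma adjusted p = 0.0041). They were highest at ZT02 with 156 and 167 RPKM and lowest at ZT16, where the replicates differed most, with 123 and 75.4 RPKM. Mrpl9, a large subunit protein, had a fold of 1.31 with a peak at ZT15.5 (limma adjusted p = 0.000302), from 51.2 and 45.7 RPKM at ZT04 to 67.6 and 84.5 RPKM at ZT16. Mrpl2, which lies near the catalytic centre of the large subunit, had a fold of 1.30 with a peak at ZT7.46 (limma adjusted p = 9.02e-05). Mrps11, in the small subunit, had a fold of 1.27 with a peak at ZT2.15 (limma adjusted p = 0.00435). These 5 peaks were spread over ZT2.15 to ZT15.5. Over the 17 members called, 4 peaked from ZT00 to ZT06, 5 from ZT06 to ZT12, 6 from ZT12 to ZT18 and 2 from ZT18 to ZT24.

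Both RNA and footprints were called in 8 members, namely Mrpl2, Mrpl3, Mrpl10, Mrpl12, Mrpl20, Mrps6, Mrps9 and Mrps14. This is 8 of the 32 RNA calls (25%) and 8 of the 17 footprint calls (47.1%). Over all 74 members 23.0% were called in footprints and 43.2% in RNA. Both overlap shares were thus near those of the whole set. The fitted RNA and footprint peaks of 4 of these 8 differed by at most 3 h. A further 24 members were called in RNA only and 9 in footprints only, and 33 were called in none of RNA, footprints and TE. A call in one assay and not in the other does not show that they differ, and that was tested with TE.

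**Figure D3:**
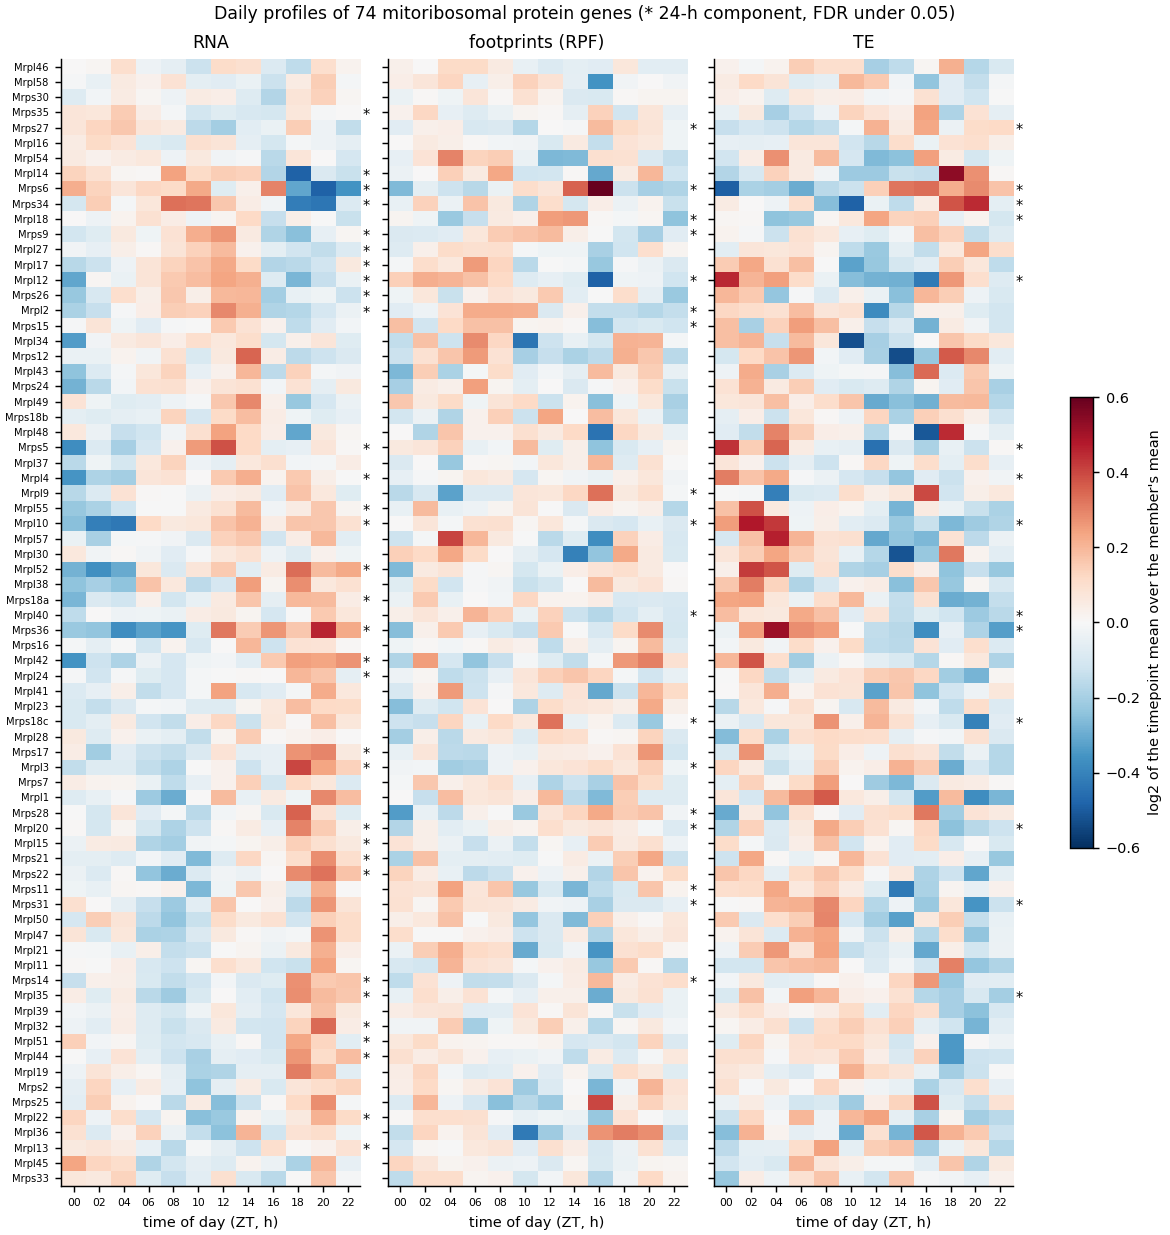
Log2 ratio of each timepoint mean to the member's own mean (colour) for the 74 members (rows, ordered by fitted RNA peak) in RNA, footprints and TE, with timepoints from ZT00 to ZT22 on the x axis and an asterisk for a 24-h component at an FDR under 0.05. RNA colours form a faint diagonal, while strong colours are limited to single members such as Mrps6, Mrps36, Mrps34 and Mrpl12.

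The TE test asks whether footprints and RNA differed in their daily course. In TE 14 of 74 members (18.9%) had a 24-h component, while 17.1% of all genes did, and 3 members had a fold of at least 1.5, while 3.74% of all genes did. The share with a component was close to that of all genes. The 3 members were Mrps6, Mrps36 and Mrpl12. The TE of Mrps6 rose from 1.68 and 1.91 at ZT00 to 3.08 and 3.26 at ZT16, and the fitted fold was 1.57 with a peak at ZT16.2 ± 0.61 h (SE, limma adjusted p = 0.00146). Its RNA was highest at the same timepoint, ZT16 (94.5 and 94.3 RPKM), and lowest at ZT20 (54.3 and 55.4 RPKM).

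The TE of Mrps36 moved the other way. It was 1.35 and 1.496 at ZT04 and 0.777 and 0.762 at ZT16, with a fold of 1.54 and a peak at ZT5.07 ± 0.81 h (SE, limma adjusted p = 0.00876). Its footprints had a fitted fold of 1.06 (limma adjusted p = 0.763), so the member with the largest RNA rhythm did not pass in footprints. Mrps36 has 4 processed pseudogenes with at least 95% identity over at least 100 bases of its coding sequence. None of them is listed in the tables, and how reads shared with them were counted is not given in the sources used here. Such copies were found for 16 members, among them Mrps21, Mrpl42, Mrpl51, Mrps18b and Mrps5, and their part in the values of these members was not tested. Of the 57 members with neither a copy nor an overlapping gene, 22 had a 24-h component in RNA, 16 in footprints and 11 in TE, and 0, 0 and 1 also reached a fold of 1.5 (the largest folds were 1.46, 1.36 and 1.52), while 15 were called high and 3 low in TE level. Without the ZT04 pool of replicate 2 the TE fold of Mrps36 was 1.49 (limma adjusted p = 0.0189), under the 1.5-fold limit.

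Mrpl12 (chr11:120484613-120489065, plus strand) had its highest TE at ZT00 (1.36 and 1.15) and its lowest at ZT16 (0.841 and 0.526), with a fold of 1.52 and a peak at ZT1.07 ± 0.87 h (SE, limma adjusted p = 0.014). Its RNA peaked at ZT9.92 and its footprints at ZT3.90. Without the ZT16 pool of replicate 2, whose RPF library gave the low value, the TE fold of Mrpl12 was 1.44 (limma adjusted p = 0.0166) and fell under the 1.5-fold limit. Mrpl10 and Mrps5, a small subunit protein, came next with TE folds of 1.47 and 1.43 and peaks at ZT3.56 and ZT1.80 (limma adjusted p = 0.00469 and 0.00759). The TE of Mrpl10 was 1.41 and 1.30 at ZT02 and 0.830 and 0.784 at ZT18, and that of Mrps5 was 1.76 and 1.55 at ZT00 and 0.995 and 0.803 at ZT12. In both, RNA rose towards ZT12 or ZT14 while the footprint folds were 1.12 and 1.13, and footprints of Mrpl10 stayed between 48.7 and 60.8 RPKM in all 24 libraries. Of the 14 TE peaks, 10 fell in the light phase, while 52.7% of all TE peaks did.

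**Figure D4:**
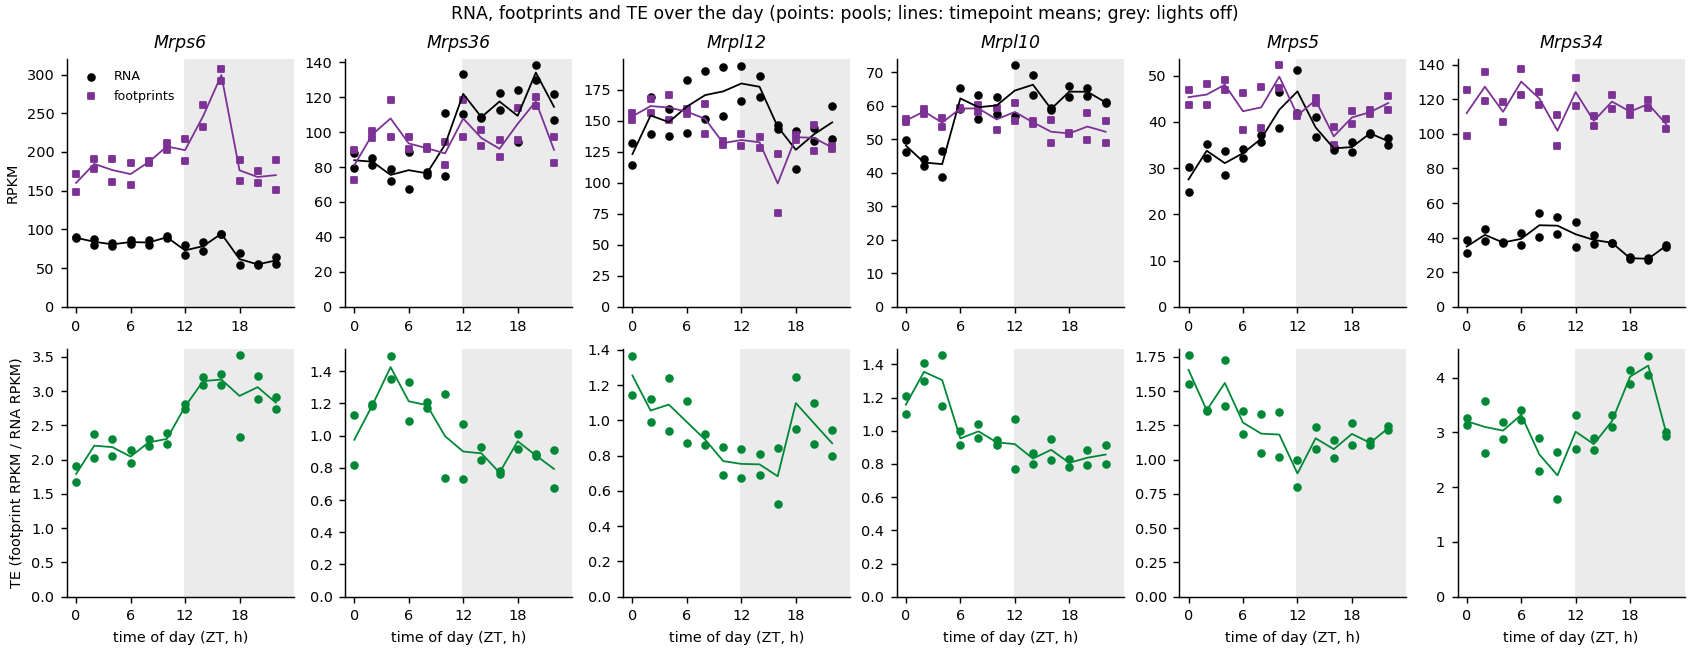
RNA and footprint levels (upper row, RPKM) and TE (lower row, ratio) against time of day for 6 members, with 1 point per pool, lines through the timepoint means and grey for lights off. Mrps6 footprints and RNA both have their highest timepoint mean at ZT16 (299 and 94.4 RPKM), and Mrps36 and Mrpl10 RNA is lowest at ZT04 while their footprints vary less.

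Mrps6 shares its locus with Slc5a3, which encodes the sodium-dependent myo-inositol transporter and responds to tonicity in the kidney. In GENCODE vM21 on GRCm38 Mrps6 lies on chr16:92058270-92112227 (plus strand), and the annotated start of Slc5a3 is 52 bases downstream on the same strand. Slc5a3 footprints also were highest at ZT16, with 182 and 212 RPKM against a median of 124 RPKM, and its RNA was highest at ZT16 too, with 156 and 160 RPKM against a median of 99.8 RPKM. The fitted peaks of the 2 genes in footprints were at ZT13.6 and ZT16.1. In RNA the fitted peaks lay further apart. That of Slc5a3 was at ZT17.1, with its lowest timepoint at ZT08. The fitted Mrps6 RNA peak given above fell in the light phase, away from the highest Mrps6 RNA timepoint, ZT16. The coding sequences of the 2 genes share no stretch of at least 100 bases at 95% identity. An annotated gene that overlaps Mrps6 on the same strand and shares part of its coding sequence (Gm49711) is not listed. Whether reads from the shared locus contributed to the Mrps6 values was not tested.

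The median profile of the members moved little over the day. For each pool the median over members of the log2 deviation from the member's own mean was taken, and averaged over the 2 pools of a timepoint. In RNA this median was highest at ZT20 (0.11) and lowest at ZT16 (-0.05), a range of 0.16 with an SD of 0.05 between replicates. In footprints it was highest at ZT20 (0.07) and lowest at ZT16 (-0.08), a range of 0.15 with a replicate SD of 0.05. For TE the range was also 0.15, from 0.08 at ZT02 to -0.07 at ZT22, with a replicate SD of 0.06. At ZT20 on average 57 of the 74 members were above their own mean in RNA, and at ZT16 24.5 were. The footprint value at ZT16 rested on pools with medians of 0.02 and -0.17. Most pairs of members varied together only weakly. Over the 2701 pairs the median Pearson correlation across 24 libraries was 0.16 in RNA and 0.09 in footprints, beside 0.01 for all pairs of genes in both. Correlations over 0.5 were more frequent among members than among all pairs of genes. They made up 14.3% of member pairs and 7.23% of all pairs in RNA, and 10.4% and 3.85% in footprints. In TE these shares were 8.74% and 4.12%.

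In the other lists of the mitochondrial translation system most folds were also under 1.5. The counts below stand beside 48.6% of all genes called in RNA, 30.9% in footprints and 17.1% in TE. Of 5 further mitoribosomal proteins with other names, 3 had a 24-h RNA component, 2 a footprint component and 2 a TE component. Gadd45gip1, a large subunit protein, had a footprint fold of 1.40 with a peak at ZT2.88 (limma adjusted p = 4.83e-05) and a TE fold of 1.33, and Dap3, a GTP-binding small subunit protein, had a footprint fold of 1.16. Chchd1 and Ptcd3, both in the small subunit, had RNA folds of 1.24 and 1.19 with peaks near ZT20, and Ptcd3 had a TE fold of 1.32. Of 15 mitochondrial translation factors, 11 (73.3%) had an RNA component, 4 a footprint component and 3 a TE component. The largest RNA folds were 1.38 for Slirp, the partner of Lrpprc in stabilising mitochondrial mRNAs, and 1.34 for the release factor Mtrf1l, both peaking near ZT19.5. The largest footprint folds were 1.29 for Mtrf1l and 1.27 for the recycling factor Mrrf, and the largest TE folds were 1.35 for Slirp and 1.21 for the elongation factor Tufm.

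Of 21 factors for mitoribosome assembly and rRNA modification, 11 had an RNA component, 3 a footprint component and 2 a TE component. The GTPase Mtg1 had an RNA fold of 1.54 with a peak at ZT6.59 and a TE fold of 1.43, Ybey had an RNA fold of 1.501, and the pseudouridine synthase Trub2 had a footprint fold of 1.57 with a peak at ZT9.83. Mettl17 followed in footprints with 1.33 and Fastkd2 in TE with 1.36. Of 12 regulators of mitochondrial biogenesis and transcription, 8 had an RNA component, 2 a footprint component and 1, Tfam, a TE component, with a fold of 1.32 (limma adjusted p = 0.0495). The transcription factor Tfb2m had an RNA fold of 1.69 with a peak at ZT8.58, and the coactivator Ppargc1b had 1.498 in RNA and 1.34 in footprints, while Myc footprints had a fold of 1.77 with a peak at ZT22.4.

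Cytosolic ribosomal protein genes had more footprint calls than the members but as many TE calls. Of 74 cytosolic ribosomal protein genes 24 had a 24-h RNA component and 48 a footprint component, with median folds of 1.13 and 1.36. The mitoribosomal members had 32 and 17, with 1.15 and 1.13, and the 78 nuclear genes of respiratory chain subunits, whose products assemble with the proteins that mitoribosomes make, had 33 and 14, with 1.15 and 1.10. A 24-h TE component was called in 14 of the cytosolic list, 14 of the members and 19 of the respiratory chain list, with median TE folds of 1.30, 1.18 and 1.18. The median log2 TE was -0.78 for cytosolic ribosomal proteins, 0.42 for the members and 0.64 for respiratory chain subunits, and 47, 4 and 0 genes were called below the median gene. These lists were compared by their counts and medians alone. Near-identical copies were searched for the members only, so the part of copies in the cytosolic and respiratory chain values was not tested.

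**Figure D5:**
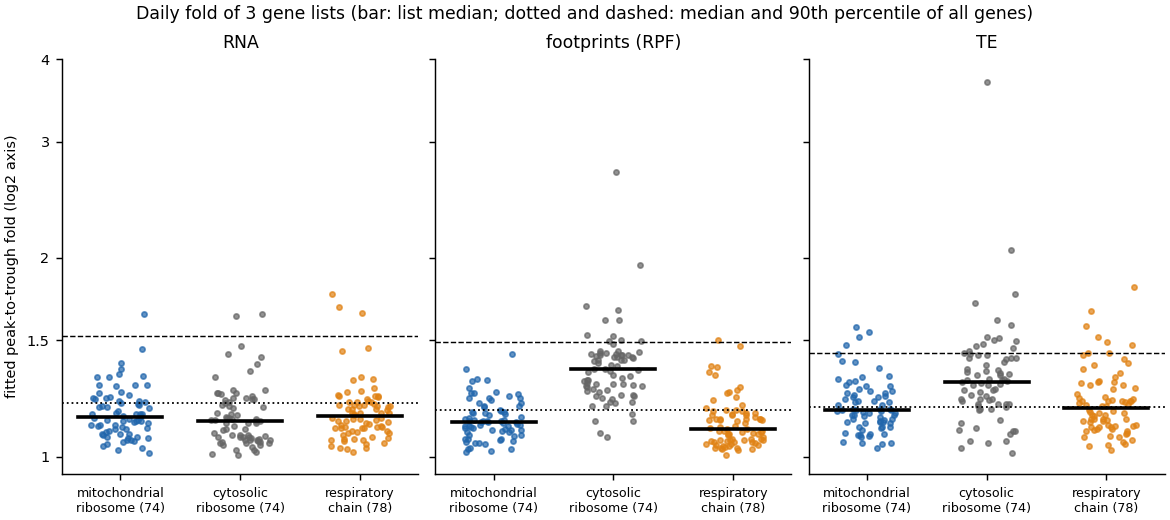
Fitted fold between peak and trough (y axis, log2 axis) of single genes (points) in mitochondrial ribosomal, cytosolic ribosomal and respiratory chain lists for RNA, footprints and TE, with list medians as bars and the median and 90th percentile of all genes as dotted and dashed lines. In footprints the cytosolic list has its median at 1.36, while the members have theirs at 1.13, under that of all genes.

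The genes are dispersed over the genome, with at most 10 on a chromosome (chromosome 11). A feature of their arrangement was that many shared a promoter region with a divergent neighbour. In the vM21 annotation 19 of 74 members (25.7%) had another protein-coding gene on the opposite strand that began within 1 kb upstream or overlapped by at most 100 bases, beside 10.7% of 11787 annotated genes tested. The partners included Sars2 (next to Mrps12), Ndufs6 (Mrpl36) and Ptcd2 (Mrps27), which also encode mitochondrial proteins, and Fau (Mrpl49) and Psma2 (Mrpl32), which encode a cytosolic ribosomal protein and a proteasome subunit.

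Promoters were read from RefSeq on GRCm38.p6, as 250 bases before to 50 bases after each annotated start, for 65 members and 9337 of the genes tested. Matches to short motifs were counted on both strands. The core of the ETS and GABP site, CCGGAAG, was present in 23 of the 65 members (35.4%) and in 19.7% of all genes. The core of the YY1 site, AAGATGG, was present in 13 (20.0%) and in 8.38% of all genes, and the NRF1 core GCATGCGC in 7 (10.8%) and in 5.83%. The clock-related E-box CACGTG was found in 5 members (7.69%) and in 11.9% of all genes, TATAAA in 5 (7.69%) and 8.95%, and CCAAT in 24 (36.9%) and 42.2%. A start with a C followed by 4 pyrimidines, the hallmark of TOP mRNAs, whose translation follows nutrient signals, was annotated in 0 of the 65 members, in 2.90% of all genes and in 12 of 54 cytosolic ribosomal protein genes. Annotated starts may differ from those used in the kidney. A match is a description of the sequence and shows no binding.

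The promoters of 6 members are shown to let these counts be read beside the members' values, with 250 bases before and 20 bases after the start and the motifs named above in capitals. Mrps18a and Mrpl52 hold both an ETS and a YY1 core, and Mrpl9 holds an NRF1 core. Mrps6, Mrps36 and Mrpl12 are the members with a TE rhythm of at least 1.5-fold. Whether members with a motif differ from the others in their rhythms was not tested. Mrps36 holds only a CCAAT match, and Mrps6 and Mrpl12 hold none of these letters.
Mrps18a, chr17:46110754-46111023 (plus strand): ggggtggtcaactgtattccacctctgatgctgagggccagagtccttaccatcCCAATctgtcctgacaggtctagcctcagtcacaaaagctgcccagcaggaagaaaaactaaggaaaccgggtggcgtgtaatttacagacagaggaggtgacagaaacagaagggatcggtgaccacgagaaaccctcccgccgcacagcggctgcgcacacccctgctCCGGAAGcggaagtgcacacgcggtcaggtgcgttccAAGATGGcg
Mrpl52, chr14:54426659-54426928 (plus strand): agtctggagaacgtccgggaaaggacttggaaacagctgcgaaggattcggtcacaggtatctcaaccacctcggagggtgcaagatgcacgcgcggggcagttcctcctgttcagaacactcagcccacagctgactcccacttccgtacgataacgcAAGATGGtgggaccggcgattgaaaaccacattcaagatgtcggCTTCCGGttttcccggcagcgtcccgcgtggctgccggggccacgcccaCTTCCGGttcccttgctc
Mrpl9, chr3:94443086-94443355 (plus strand): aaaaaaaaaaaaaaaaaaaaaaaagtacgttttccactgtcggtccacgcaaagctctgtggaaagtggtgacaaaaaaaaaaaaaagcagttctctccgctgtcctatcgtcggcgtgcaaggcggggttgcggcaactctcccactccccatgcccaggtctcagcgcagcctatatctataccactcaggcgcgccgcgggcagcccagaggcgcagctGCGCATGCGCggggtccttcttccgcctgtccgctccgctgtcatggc
Mrps6, chr16:92058086-92058355 (plus strand): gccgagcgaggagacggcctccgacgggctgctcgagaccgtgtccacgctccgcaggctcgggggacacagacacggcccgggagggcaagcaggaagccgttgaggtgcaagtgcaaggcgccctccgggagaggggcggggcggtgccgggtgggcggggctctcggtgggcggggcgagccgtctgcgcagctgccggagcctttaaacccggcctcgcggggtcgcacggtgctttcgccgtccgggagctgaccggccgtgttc
Mrps36, chr13:100744640-100744909 (minus strand): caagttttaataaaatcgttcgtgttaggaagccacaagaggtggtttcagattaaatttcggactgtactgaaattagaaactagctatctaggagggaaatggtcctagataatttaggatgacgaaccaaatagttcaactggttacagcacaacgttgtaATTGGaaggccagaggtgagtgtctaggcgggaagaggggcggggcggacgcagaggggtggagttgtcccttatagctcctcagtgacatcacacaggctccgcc
Mrpl12, chr11:120484387-120484656 (plus strand): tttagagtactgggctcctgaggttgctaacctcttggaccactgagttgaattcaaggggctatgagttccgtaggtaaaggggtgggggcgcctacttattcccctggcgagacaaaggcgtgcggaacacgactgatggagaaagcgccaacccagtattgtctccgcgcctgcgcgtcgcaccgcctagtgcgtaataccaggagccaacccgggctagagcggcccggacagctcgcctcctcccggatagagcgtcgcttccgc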

How the data were processed

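The kidney libraries were analysed from the RPKM values that the authors deposited, 1 table per library. Per the study's methods and the submitters' processing notes, the authors trimmed reads with cutadapt, mapped them with Bowtie2 2.2.1 and TopHat2 2.0.11 (GRCm38.p2), took transcript models from Cufflinks 2.2.1, counted reads on coding sequences and normalised by upper quantiles with edgeR, so a change in total mRNA or footprints per cell cannot be seen. Values were used as log2(RPKM + 0.1). No count model was used. Members and lists were chosen with earlier results of these data known.

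The rhythm test was limma's moderated F (limma 3.58.1 and R 4.3.3, variance trend) of 24-h cosine and sine terms over 24 libraries, with TE as the log2 RPF to RNA ratio within a pool. TE level was the limma intercept after centring each pool on its median gene. The Benjamini-Hochberg FDR limit was 0.05 over 11863 genes, with a fold limit of 1.5 where stated. The tests were checked on simulated data. Symbols came from GENCODE vM21 (12653 of 12728 RNA and 12569 of 12622 RPF identifiers matched). Copies were searched with BLAST 2.17.0.

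Genes named are the members with the 4 highest and 4 lowest RNA levels, the 5 highest and 5 lowest TE values, the 5 largest folds among those called in RNA, RPF and TE, the Mrps18 paralogs, the 2 largest folds per assay among those called in each pathway list, and 3 clock genes. Others, such as Slc5a3, the third footprint level and the promoters shown, were chosen after the values were seen.

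Depth was read from the RPKM steps: 1 read in 1 kb was worth 0.0299 to 0.102 RPKM in RNA-seq and 0.0287 to 0.0645 in RPF-seq, and 95.0% to 99.0% of low values were whole reads within 0.1. The paper states that mice were collected over repeated daily cycles, and the labels do not say whether the replicate number marks the cycle. The main fits leave the replicate number out. The correlation of replicate differences between timepoints averaged 0.0291 in RNA and 0.0197 in RPF over 66 pairs of timepoints. The highest values were 0.480 and 0.185. Pairs share timepoints, so these averages cannot exclude a shared cycle. RNA and RPF of 1 pool are paired by their labels.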

Additional observations from a re-analysis of the deposited data

Results flagged for a closer look

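For 14 members the daily courses of footprints and RNA differed by limma's test of TE over 24 pools (adjusted p under 0.05 over all genes). The TE folds were 1.57 for Mrps6, 1.54 for Mrps36, 1.52 for Mrpl12, 1.47 for Mrpl10, 1.43 for Mrps5 and 1.40 for Mrps34. Those of Mrps31, Mrpl4, Mrps18c and Mrpl35 were 1.32, 1.30, 1.29 and 1.28. Mrpl20 and Mrpl40 both had 1.25, Mrps27 had 1.23 and Mrpl18 had 1.21. In 5 of the 14 RNA was called and footprints were not, in 5 footprints were called and RNA was not, and in 4 both were. For 13 of the 14 the 2 replicate series gave peaks at most 3 h apart, which carries no weight alone, since these members were called on both series together. Mrps34, with the highest TE of the set, had its TE peak at ZT20.6 and its RNA peak at ZT8.16, with a footprint fold of 1.06 (limma adjusted p = 0.64).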

How the results depend on the processing

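Between 23 and 26 members were called high and 4 low when either replicate was left out, and the median log2 TE stayed between 0.42 and 0.43. The number of rhythm calls depended on which libraries were used. With 1 replicate series left out, 3 to 15 members had an RNA component, 1 to 8 a footprint component and 0 a TE component in limma's test, and with a fold of 1.5 the numbers were 0 to 2 in RNA and 0 in footprints and in TE. Of all genes, 10.1% were called in RNA without replicate 1 and 34.9% without replicate 2. In footprints 3.88% and 17.5% of all genes were called, and in TE 0 and 2 genes passed. At an unadjusted p under 0.05, 9 members passed in TE without replicate 1, beside 15.7% of all genes, and 19 without replicate 2, beside 21.5%. Both fits rest on 12 libraries instead of 24, and why they differ was not tested. The range of the member median profile was 0.0960 to 0.250 in footprints, 0.171 to 0.215 in RNA and 0.185 to 0.219 in TE. An FDR of 0.01 left 19, 8 and 5 members with an RNA, footprint and TE component, and selection by AIC gave 46 in footprints and 44 in TE. The shares of all genes under these 2 rules were not counted, so these numbers do not set members apart from other genes. With the replicate number as a block, 32, 16 and 16 members had a component in RNA, footprints and TE, and no count moved by over 1.5 times. The shares of all genes with this block were 48.7%, 31.0% and 18.2%. Treating RPF and RNA libraries as unpaired gave 23 members with high TE. Other pseudocounts, RPKM minimums, quantile normalisation and added 12-h terms kept every count within 1.5 times. Among the alternatives added after seeing the data, leaving out the ZT04 pool of replicate 2 took Mrps36 to a TE fold of 1.49, and leaving out the ZT16 pool of replicate 2 took Mrpl12 to 1.44. For the named genes, rhythms were judged by the FDR limit or AIC alone, and TE levels by the FDR and 1.5-fold limits. The falls of Mrps36 and Mrpl12 under 1.5-fold thus do not count as losses here. Of the values of named genes under all alternatives, 644 stayed on their side of these limits and 69 no longer passed. A further 2 newly passed. None turned its direction, meaning the sign of a TE level or a large shift of a rhythm's peak. Leaving out a replicate gave 55 of the 69.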
